A study of Mus musculus with 2 samples.

Results

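Opposite-strand transcripts are genes named after another gene, most often one they lie beside or across from, with the letters os added to that gene's symbol, and they are transcribed from the other DNA strand. In the count table of the uninduced iXist-ChrX-Dom line, 128 of 22556 genes had a symbol equal to that of another listed gene followed by os and at most 1 digit, and these 128 were taken as the members. Their 125 sense partners served for comparison only. All 128 lay on the same chromosome as the partner and on the opposite strand, but a few lay far from it, with 463298 bases between Sox5os3 and Sox5, 36311 between Zfp652os and Zfp652 and 20476 between Fbxl12os and Fbxl12. Partner genes Rab11fip4, Bcas3 and Pcsk2 each had a pair of members, so those members share 1 partner value.

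The cells were female mouse embryonic stem cells (mESCs) of a Dom/129S x Cast cross, untreated and collected at 0 h, in which the promoter of Xist on the Dom/129S allele had been exchanged for a TetOn promoter, so the control state itself is engineered. They were grown on inactivated feeder cells that were then depleted by pre-plating. Both samples were replicates of this 1 group, and no comparison of conditions was possible. Replicate 1 held 23716499 counts and replicate 2 held 20275749. A count of 0 therefore allows up to 3 counts, or 0.126 counts per 1000000 (CPM) in replicate 1 and 0.148 CPM in replicate 2, and this limit and all intervals cover counting error only. The labels name the cell type as mESC to NPC (neural precursor cell). Of 7 ES cell markers, 6 reached 10 counts in each replicate and Sox2 had 0 counts. Fragments cannot be assigned where genes of the same strand overlap. Such overlap was not examined for the markers, so the 0 of Sox2 was not taken as absence. The minimum was reached by 2 of 5 neural precursor markers, and by none of the 6 feeder fibroblast markers or the 4 Y-linked genes. Summed TPM (transcripts per 1000000, defined with the levels) was 5748 to 6198 for the ES list, 13.6 to 14.5 for the neural list and 0.776 to 4.54 for the fibroblast list. The part of other cells in the results was not tested.

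Antisense and opposite-strand transcription is common in mammalian genomes. Many promoters, mostly those rich in CpG dinucleotides, fire in both directions, which gives a pair of divergent transcripts with their 5′ ends close together. Others arise inside a gene or run into it from its 3′ end, and some long noncoding antisense RNAs, such as Tsix at the Xist locus and Airn at the Igf2r locus, are known to repress the gene that they cross. In the count table a fragment from a region where both strands are transcribed could be assigned by strand alone, because the authors counted in reverse-stranded mode.

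Most members had few or no counts in these cells. At least 10 counts in each replicate, the minimum used here to call a gene detected, were found for 29 members (22.7%), against 56.2% of all genes in the table. Among 1503 other genes that GENCODE M21 classes as long noncoding, 26.7% reached the same minimum. No count in either library was found for 38 members (29.7%), against 21.1% of all genes, and the other 61 had between 1 and 44 counts in all. Together the members took 8500 counts, or 0.0358%, of replicate 1 (95% Wilson interval 0.0351 to 0.0366%) and 6143 counts, or 0.0303%, of replicate 2 (0.0295 to 0.0311%). Their partners took 0.539% and 0.557%. Slc7a6os and Cebpzos alone made up 60.2% of the member counts in replicate 1 and 56.8% in replicate 2.

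Levels were expressed as TPM, which divides counts by gene length and scales each library to 1000000. The deposited length spans introns and is called span length here. On this scale the members had a median of 0.101 TPM, their partners of 1.64 TPM and all genes of 1.35 TPM. With exonic length, taken from GENCODE M21 exons inside the counted span, these medians were 0.210, 3.26 and 1.83 TPM. The same counts were divided by either length, so any fragments from introns also enter the values with exonic length. A span TPM of at least 1 was reached by 34 members and of at least 10 by 11. RefSeq lists 8 of the 128 as protein coding, and 6 of these 8 were detected, against 23 of the 120 others. The 2 coding members below the minimum were Wdr83os, with 9 and 4 counts, and Trpc5os, with 7 and 13 counts. Chd3os, which RefSeq does not list as coding, is protein coding in GENCODE M21 under the symbol Rnf227.

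Cebpzos, a protein-coding gene on chromosome 17 (78916498 to 78921048, plus strand, mm10), stood highest by span TPM. It had 1931 counts in replicate 1 and 1601 in replicate 2, or 299 ± 17.9 TPM (SD, n = 2), and its partner Cebpz, which acts in ribosome biogenesis, had 8746 and 7638, which is 350 ± 33.8 TPM. With exonic length Cebpzos was slightly the higher of the pair, at 306 ± 7.27 against 269.5 ± 16.3 TPM. The pair runs tail to tail with 2047 bases in common. Neither gene passed the test between the libraries, given further on, when scaled by library totals, but Cebpzos passed with TMM factors, DESeq2 size factors and the GC trend.

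Slc7a6os on chromosome 8 (106200437 to 106210933, minus strand), which encodes a protein related to the yeast factor Iwr1 that brings RNA polymerase II into the nucleus, had the most counts of all members. It had 3184 and 1887 counts, or 182 ± 32.1 TPM. Slc7a6, an amino acid transporter, had 948 and 670 counts, or 20.7 ± 1.09 TPM. Slc7a6os thus held 77.1% (95% Wilson interval 75.8 to 78.3%) and 73.8% (72.1 to 75.5%) of the counts of the pair. The 2 genes do not overlap, since their 3′ ends are 1732 bases apart, and Slc7a6os starts 120 bases from the start of another gene, the arginine methyltransferase Prmt7, which had 1535 and 860 counts.

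Fam120aos, beside the RNA-binding protein gene Fam120a on chromosome 13, had 313 and 262 counts, and Fam120a had 7886 and 8124. The short span of Fam120aos, 1795 bases, gave it 123 ± 8.22 TPM against 70.6 ± 14.95 TPM for Fam120a. With exonic length that order was reversed, at 57.6 ± 1.76 against 220.0 ± 38.8 TPM. The length used for a gene thus set which of these partners was the higher.

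Below these, 12 further members made up the 15 with the highest span TPM among those detected. Rab26os, at 3′ distance of 308 bases from the secretory GTPase gene Rab26, had 50 and 11 counts, or 43.9 ± 34.2 TPM. Toporsos, which overlaps the start of the ubiquitin ligase gene Topors, had 52 and 20 counts, or 41.0 ± 19.1 TPM. Chd3os, past the 3′ end of the chromatin remodeller gene Chd3, had 110 and 84 counts, or 39.5 ± 0.071 TPM. All 3 have short spans, of 495 to 1880 bases, and their levels with exonic length were lower, at 7.73 ± 6.22, 14.2 ± 7.07 and 7.27 ± 0.25 TPM.

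Rab10os, which meets the GTPase gene Rab10 tail to tail, had 432 and 469 counts, or 24.2 ± 6.005 TPM. Ccpg1os, divergent from the gene of the ER-phagy receptor Ccpg1, had 178 and 80 counts, or 16.9 ± 6.15 TPM. Sp3os, at the start of the gene for the GC-box factor Sp3, had 170 and 185 counts, or 14.2 ± 3.54 TPM. Among these 3, Ccpg1os alone is listed as coding in RefSeq. Peg3os, inside the imprinted zinc finger gene Peg3, had 16 and 13 counts, or 12.9 ± 0.587 TPM, on a span of 866 bases. Map2k3os, divergent from the p38 kinase kinase gene Map2k3, had 209 and 123 counts, or 11.4 ± 2.07 TPM. Stamos, divergent from the endosomal sorting gene Stam, had 48 and 38 counts, or 9.16 ± 0.25 TPM. Phtf1os, which overlaps the start of Phtf1, had 31 and 52 counts, or 8.85 ± 4.70 TPM. Cep83os, divergent from the centriolar gene Cep83, had 127 and 148 counts, or 7.16 ± 2.12 TPM. Ptprtos, inside the receptor phosphatase gene Ptprt, had 29 and 22 counts, or 6.22 ± 0.0178 TPM. The 14 detected members below them ranged from 0.455 to 5.87 TPM.

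**Figure D1:**
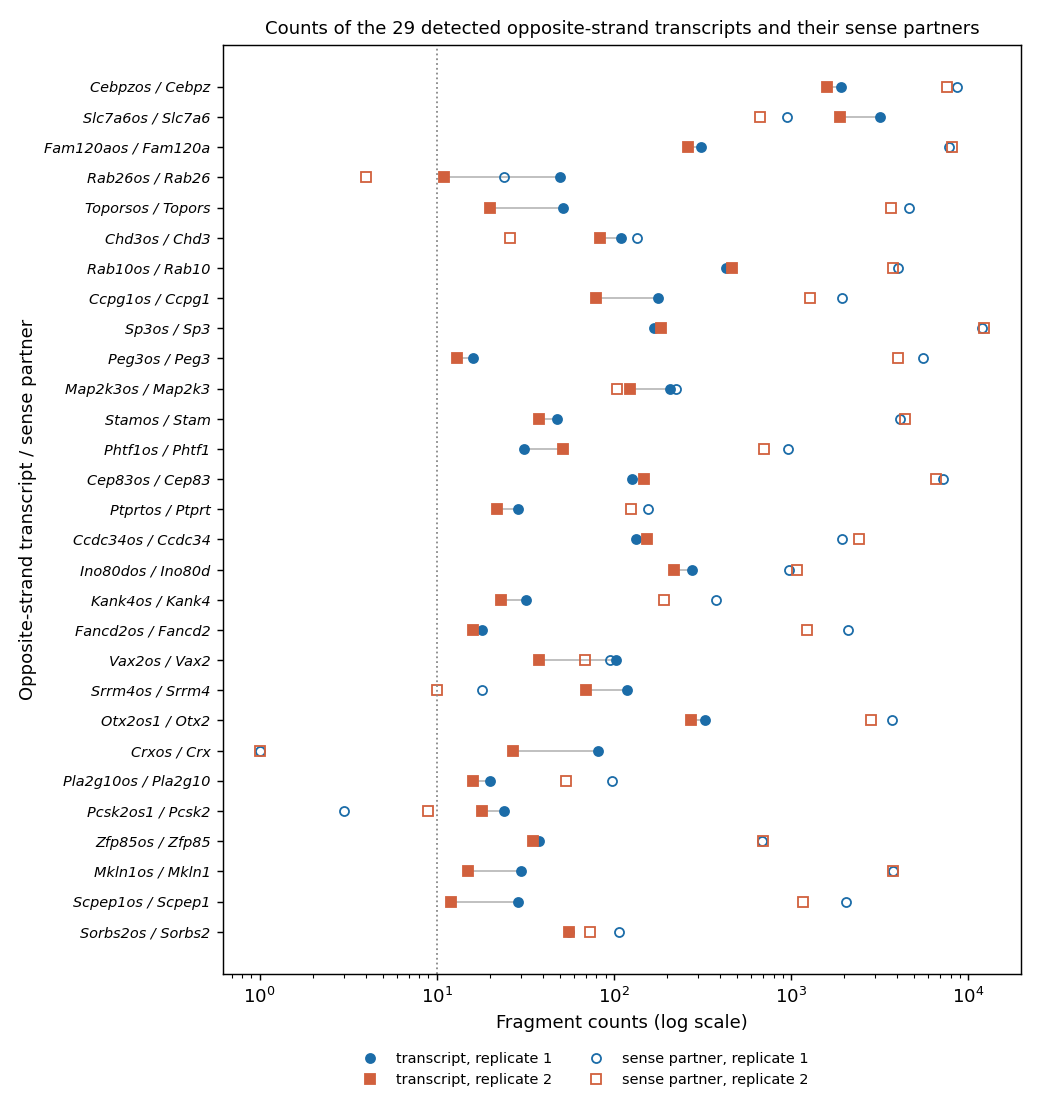
Fragment counts (log scale) of the 29 detected opposite-strand transcripts (filled) and their sense partners (open) in replicate 1 (circles) and replicate 2 (squares), ordered by mean span TPM. The dotted line marks 10 counts, and in Slc7a6os, Rab26os, Srrm4os, Crxos and Pcsk2os1 the filled symbols lie to the right of the open symbols in both replicates.

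Position against the partner varied. Members inside the partner's span were the largest class, with 44, followed by 31 divergent members without overlap, 30 that overlap head to head, 12 that overlap tail to tail, 8 convergent members without overlap and 3 that contain the whole partner. Of the members inside their partner, 4 of 44 were detected and 18 had 0 counts, although 37 of their partners were detected. Among divergent members without overlap 9 of 31 were detected, among head to head pairs 6 of 30, among tail to tail pairs 5 of 12 and among convergent pairs 4 of 8. Median partner CPM was 4.74 for the inside class and 5.26 for the divergent class. In TPM with the full gene span as length, the partner medians of these classes were 0.986 and 3.78. These are counts of members, with no test.

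**Figure D2:**
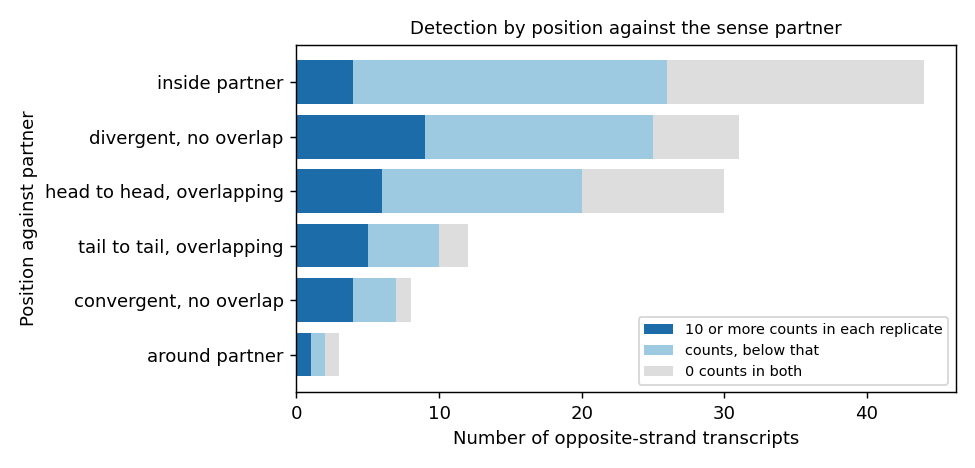
Number of opposite-strand transcripts in each position class against the sense partner, split into those with 10 or more counts in each replicate, those with counts below that, and those with 0 counts in both. The class inside the partner is the largest, at 44, with 4 detected and 18 at 0.

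Members that lie inside an abundant partner took a small part of the counts of the pair, a share that also depends on how much of the partner's span they cover. For 20 members inside a partner of 100 or more counts per library, the member counts were 105 of 17415 pair counts in replicate 1, which is 0.603% (95% Wilson interval 0.498 to 0.729%), and 81 of 12908 in replicate 2, which is 0.628% (0.505 to 0.779%). Of these 20, 7 had 0 counts in both. Ptprtos held the highest share, at 15.6% and 14.9%. In 20 pairs whose exons overlap by at least 50 bases and whose partner had 100 or more counts per library, the share on the member ranged from 0 to 18.1% in replicate 1 and from 0 to 17.3% in replicate 2, with medians of 0.910% and 0.842%. Slain1os, with 156 exonic bases in common with Slain1, had 0 and 1 counts beside 1013 and 1219, and was picked here after its values were seen. How many fragments the library kit placed on the wrong strand was not tested.

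The 5′ ends of 39 members lay within 1000 bases of a 5′ end of the partner, and 11 of these 39 were detected. Another 4 had the 5′ end of a different gene that close, of which Slc7a6os (Prmt7), Rab26os (Traf7) and Zfp85os (Zfp65) were detected and Fam219aos had 0 counts. Of the 85 with neither, 15 were detected. For 8 detected members, up to 250 bases lay between the annotated first base of the member and that of a divergent gene. These stretches are printed, and where transcripts start in these cells was not measured. Each is from the RefSeq promoter windows (GRCm38.p6, the assembly of mm10), 5′ to 3′ on the strand of the member and ending just before its first base, with CpG dinucleotides in capitals.
Ino80dos and Ino80d (chr1:63114268-63114469, plus strand): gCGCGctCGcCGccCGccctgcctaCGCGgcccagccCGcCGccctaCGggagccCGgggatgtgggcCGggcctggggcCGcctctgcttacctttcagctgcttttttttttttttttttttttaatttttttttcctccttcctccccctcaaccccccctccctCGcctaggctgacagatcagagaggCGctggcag
Cep83os and Cep83 (chr10:94688614-94688788, minus strand): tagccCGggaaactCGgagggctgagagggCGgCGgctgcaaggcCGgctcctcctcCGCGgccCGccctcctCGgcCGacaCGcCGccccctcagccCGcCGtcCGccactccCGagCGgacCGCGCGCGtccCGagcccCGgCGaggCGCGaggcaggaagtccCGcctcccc
Map2k3os and Map2k3 (chr11:60931868-60932055, minus strand): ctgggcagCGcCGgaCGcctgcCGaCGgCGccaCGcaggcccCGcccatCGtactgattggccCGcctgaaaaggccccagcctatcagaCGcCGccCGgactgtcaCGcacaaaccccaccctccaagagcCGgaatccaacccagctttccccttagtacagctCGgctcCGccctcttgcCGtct
Stamos and Stam (chr2:14073935-14074110, minus strand): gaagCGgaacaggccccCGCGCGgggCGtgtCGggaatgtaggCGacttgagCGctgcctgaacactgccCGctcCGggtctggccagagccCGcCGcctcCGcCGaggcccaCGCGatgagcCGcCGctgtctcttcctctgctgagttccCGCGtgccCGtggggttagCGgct
Mkln1os and Mkln1 (chr6:31398774-31398826, minus strand): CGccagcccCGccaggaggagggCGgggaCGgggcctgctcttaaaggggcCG
Ccpg1os and Ccpg1 (chr9:72985377-72985502, minus strand): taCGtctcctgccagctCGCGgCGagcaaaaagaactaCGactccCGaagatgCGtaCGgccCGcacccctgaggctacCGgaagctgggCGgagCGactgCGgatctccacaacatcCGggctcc
Slc7a6os and Prmt7 (chr8:106210934-106211052, minus strand): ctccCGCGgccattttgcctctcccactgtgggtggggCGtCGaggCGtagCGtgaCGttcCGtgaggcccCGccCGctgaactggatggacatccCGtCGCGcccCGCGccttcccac
Zfp85os and Zfp65 (chr13:67729174-67729260, plus strand): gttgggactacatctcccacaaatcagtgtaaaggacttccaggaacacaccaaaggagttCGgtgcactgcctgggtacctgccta
The gaps of Cep83os, Stamos, Map2k3os, Ino80dos and Slc7a6os held 27, 22, 18, 15 and 15 CpG in 175, 176, 188, 202 and 119 bases, with a GC content of 62.4 to 79.4%. The gap between Zfp85os and Zfp65 held 1 CpG in 87 bases, and both of its genes were detected, with 38 and 35 counts for Zfp85os and 2320 and 2664 for Zfp65.

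Short divergent gaps were also found where neither gene was counted. Emx2 and Lhx1, homeobox genes of forebrain and of head and kidney development, had 0 counts in both libraries, and so did Emx2os and Lhx1os. Their gaps are shown for comparison with those of detected pairs.
Emx2os and Emx2 (chr19:59458636-59458688, minus strand): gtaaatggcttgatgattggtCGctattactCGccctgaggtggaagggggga
Lhx1os and Lhx1 (chr11:84525535-84525658, plus strand): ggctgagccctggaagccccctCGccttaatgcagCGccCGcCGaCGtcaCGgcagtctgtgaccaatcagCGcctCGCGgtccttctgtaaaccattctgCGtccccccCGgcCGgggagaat
The gap of Lhx1os held 12 CpG in 124 bases, against 14 in 126 for Ccpg1os, and that of Emx2os held 2 in 53, against 5 in 53 for Mkln1os. Gaps of members that were not detected beside a detected partner are not printed. They held 18 CpG in 220 bases (Rbm46os), 10 in 65 (Med9os), 8 in 92 (Atad3aos), 6 in 133 (Plekhd1os) and 6 in 215 (Wdr83os).

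Promoter windows (250 bases before to 50 after the start, RefSeq) could be matched for 100 members and 16244 genes of the table in all. The 32 members that start within 1000 bases of their partner's start had a median of 26 CpG per window and 66.8% GC, against 5 CpG and 51.8% GC for the other 68 and 14 CpG and 57% GC for all genes. A set of 5 letter strings was searched on both strands, none of which contains another. GGGCGG (GC box) was in 18 of the 32 windows (56.25%), 14 of the 68 (20.6%) and 48.1% of all genes, and CCGGAAG (ETS factors) in 5 of the 32 (15.6%), 3 of the 68 (4.41%) and 12.2% of all. CCAAT was in 28.1%, 42.6% and 38.7%, and TATAAA in 9.38%, 11.8% and 12.9%. The NRF1 palindrome was in none of the 100 and in 1.39% of all. These are matches of letters only.

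The level of the partner was set beside detection of the member, with no test. Of 14 members with a partner of at least 100 CPM, 11 were detected (78.6%), against 8 of 28 with a partner of 10 to 100 CPM, 6 of 46 with 1 to 10 CPM and 4 of 40 below 1 CPM. Across all 128 pairs, Spearman's rho between the CPM of member and partner was 0.47, and within the 29 detected members it was 0.31. These are correlations across pairs that share 2 libraries, given as a description. Abundant partners with few or no member counts also occurred. Smc2, which encodes a condensin subunit, had 22916 and 22701 counts, while Smc2os, 283 bases away on the other strand and chosen here after its values were seen, had 7 and 1. Dgke had 2805 and 2766 counts, and Dgkeos, which starts 2 bases from it, had 0 in both.

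**Figure D3:**
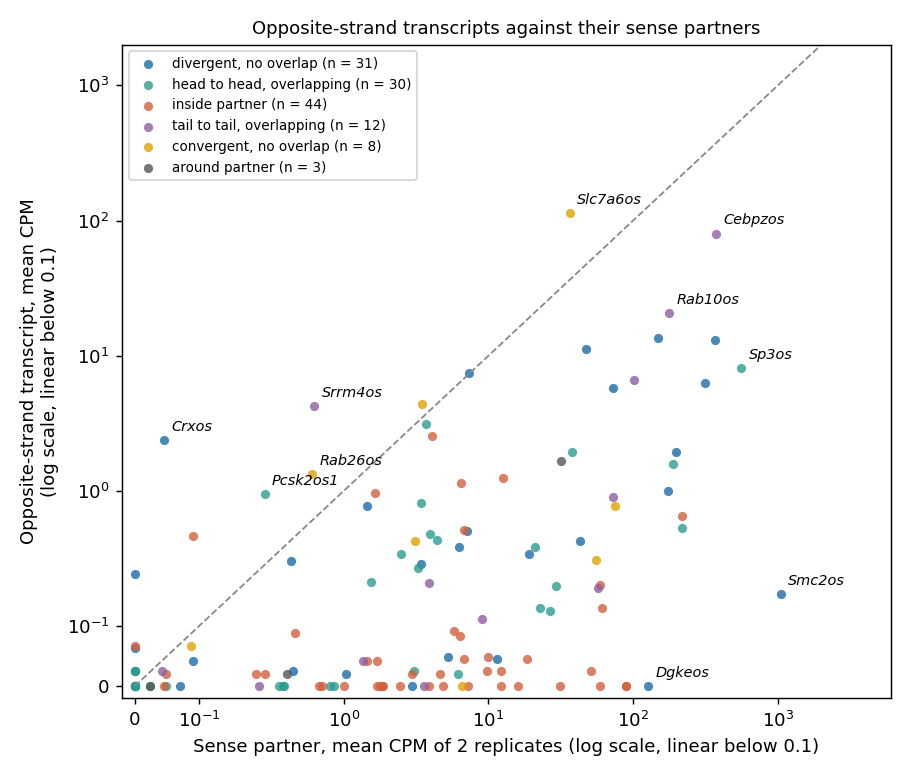
Mean CPM of each opposite-strand transcript against that of its sense partner (log axes, linear below 0.1 CPM), coloured by position class, with the line of equal CPM dashed. Among the points above the line are Slc7a6os, Srrm4os, Rab26os, Pcsk2os1 and Crxos, and Smc2os and Dgkeos lie far below it beside abundant partners.

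The level of each member was then set against that of its partner in the 96 pairs with at least 10 counts for the pair in each replicate. The median log2 ratio of member over partner was −2.95 with span length, −4.37 with exonic length (95 pairs, as Peg3os has none) and −6.01 in CPM, each after adding 0.5 counts. The range with span length ran from −10.74 to 6.33. Its low end is Dgkeos, which had 0 counts in both libraries, so that value is set by the added 0.5 counts. By span TPM, 13 members were above their partner in both replicates, namely Chd3os, Crxos, Fam120aos, Frs3os, Kank4os, Map2k3os, Pcsk2os1, Ptprtos, Rab26os, Slc7a6os, Sorbs2os, Srrm4os and Tmem51os1. With exonic length 12 were, with Cebpzos and Ino80dos added and Fam120aos, Kank4os and Tmem51os1 lost. In CPM 5 were, and Crxos, Pcsk2os1, Rab26os, Slc7a6os and Srrm4os were above under all 3 measures.

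Crxos, a homeobox gene next to the photoreceptor homeobox gene Crx on chromosome 7, had the highest ratio to its partner in CPM. It had 82 and 27 counts and Crx had 1 in each library, so Crxos held 98.8% (95% Wilson interval 93.5 to 99.8%) and 96.4% (82.3 to 99.4%) of the pair. Srrm4os had 119 and 70 counts, while Srrm4, a splicing factor of neurons, had 18 and 10 over a span of 152546 bases. The share of Srrm4os was 86.9% and 87.5%, nearly equal in the 2 libraries. Pcsk2os1 had 24 and 18 counts beside 3 and 9 for the prohormone convertase gene Pcsk2, and its interval for the share in replicate 2, 47.8 to 81.4%, included equal counts. Rab26os had 50 and 11 counts beside 24 and 4, with an interval for replicate 2 of 48.0 to 89.1%. In that library both intervals therefore reach below an equal share. All but Slc7a6os and Srrm4os of these had a partner that was itself not detected.

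The other 8 of the 13 were above their partner by span TPM but not by CPM in both replicates, and each had a partner with a longer span. Map2k3os and Chd3os had more counts than their partner in replicate 2 and fewer in replicate 1. Map2k3os held 48.3% (43.6 to 53.0%) and 54.2% (47.7 to 60.5%) of the pair's counts, and both intervals include equal counts, at 11.4 ± 2.07 and 5.86 ± 2.01 span TPM. Sorbs2os held 34.4% and 43.1%, with 56 counts in each library beside 107 and 74 for Sorbs2. Chd3os held 44.9% (38.8 to 51.2%) in replicate 1 and 76.4% (67.6 to 83.3%) in replicate 2, intervals that do not overlap, and Chd3 had 135 counts in replicate 1 and 26 in replicate 2. Frs3os had 35 and 9 counts beside 64 and 12 for the FGF receptor adaptor gene Frs3. Kank4os had 32 and 23 beside 378 and 192, and Tmem51os1 had 17 and 5 beside 114 and 63.

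Partners whose symbol starts with the name of a family of developmental transcription factors (Hox, Dlx, Lhx, Otx and others on a list) numbered 20. The list is not complete, and it leaves out Crx and Hnf4a, of whose members Crxos was detected and Hnf4aos was not. Their members were detected in 2 cases, Otx2os1 and Vax2os, and 8 had 0 counts. Of the 108 other members 27 were detected. The partners were also low, with a median of 0.241 CPM against 5.54 CPM for the other partners, and 8 of the 20 had a detected partner. Otx2os1, a noncoding transcript that starts 1643 bases from the head and epiblast homeobox gene Otx2, had 328 and 272 counts. Otx2 had 3758 and 2827, and the share of Otx2os1, 8.03% (7.23 to 8.90%) and 8.78% (7.83 to 9.82%), had overlapping intervals in the libraries. Its level was 1.86 ± 0.112 TPM over a span of 124062 bases and 29.5 ± 0.704 TPM with exonic length. Vax2os, which overlaps the start of the retinal homeobox gene Vax2, had 103 and 38 counts beside 96 and 69.

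Members at 0 counts in both libraries with a partner from that list were Lhx1os, Six3os1, Emx2os, Zeb2os, Hoxd3os1, Gata5os, Msx1os and Dlx6os1. Six3os1 and Dlx6os1 (also called Evf2) are known from the developing eye and forebrain. The other members at 0 were Dnm3os, Atcayos, Kcnmb4os1, Lyrm7os, Slc36a1os, Rab11fip4os2, Slfn5os, Bcas3os1, Bcas3os2, Dgkeos, Arhgap27os3, Dnmt3aos, Slc6a19os, Nrg3os, Tnk2os, Arhgap15os, Il1bos, Ctcflos, Kcnd3os, Fam219aos, Frmpd1os, Ctrcos, Fhad1os1, Prkag2os1, Ppp2r2cos, Pitpnm2os1, Tmem132cos, Plxna4os1, Igf2os and Gldnos. Of these, Dnm3os is the precursor of a microRNA cluster of mesenchymal cells, and Igf2os lies at an imprinted locus. A part of the span was covered by another gene of the same strand, where fragments cannot be assigned, in 4 members, and the share was at most 18.1%, in Ppp1r3fos. Such overlap was not computed for the partners, so fragments that they lose in this way are not known.

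On the X chromosome lie 3 members, none of which was detected. Rbm3os (8145426 to 8147963, plus strand), at the start of the cold-induced RNA-binding gene Rbm3, had 17 and 7 counts beside 5073 and 4416. Ppp1r3fos, which overlaps the start of the phosphatase subunit gene Ppp1r3f, had 8 and 4 beside 108 and 40. Trpc5os, inside the cation channel gene Trpc5, had 7 and 13 beside 2 and 2, a share of 77.8% (45.3 to 93.7%) and 86.7% (62.1 to 96.3%). Trpc5os alone of the 3 had more counts than its partner, and its interval for replicate 1 includes an equal share.

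The 2 libraries were compared gene by gene with a two-sided exact binomial test, which takes the ratio of the library totals as the null, and p-values were adjusted by Benjamini-Hochberg over all 14536 genes with at least 10 counts in total. The test compares these 2 libraries, not conditions, and the labels do not say whether they came from separate cultures. Of 48 members tested, 15 differed at an adjusted p of 0.05 (31.25%), against 60.8% of all genes tested and 43.8% of the 4228 genes whose total count lay within the middle 50% of the tested members (19.75 to 190.25 counts). Higher in replicate 2 were 5 members and lower were 10, against 15.1% and 45.7% of all genes tested. The split depends on the scaling, since 6 were higher and 8 lower with edgeR's TMM factors, and 8 higher and 7 lower with DESeq2 size factors. In all 6 settings tried, Ccdc34os, Ccpg1os, Cep83os, Crxos, Phtf1os, Rab10os, Rab26os, Slc7a6os and Vax2os passed. The calls of Map2k3os and Srrm4os were lost with TMM factors, DESeq2 size factors and the GC trend, that of Toporsos with DESeq2 size factors, that of Frs3os with the GC trend, and that of Sp3os with the GC trend and with no filter on low counts. Frs3os and Hnf4aos, under 10 counts in replicate 2, were not tested with 10 counts required in each. Calls were gained by Cebpzos with TMM factors, DESeq2 size factors and the GC trend, by Fam120aos with DESeq2 size factors and the GC trend, by Otx2os1 with DESeq2 size factors and by Ino80dos with the GC trend.

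Hnf4aos, upstream of the gene of the liver and gut factor Hnf4a, had the lowest ratio of replicate 2 to replicate 1 among the 15 members that passed, with 33 counts in replicate 1 and 3 in replicate 2, a log2 ratio of −3.03 (adjusted p = 5.49e-06, exact binomial test). Hnf4a had 40 and 25 counts, a log2 ratio of −0.44 that did not pass (adjusted p = 0.336). Rab26os and Frs3os were lower in replicate 2 by log2 ratios of −1.91 and −1.68, and their partners by −2.22 and −2.14, all past the threshold. In these pairs member and partner differed in the same direction.

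Slc7a6os had a log2 ratio of −0.53 (adjusted p = 3.44e-36, exact binomial test) and Slc7a6 of −0.27. Crxos stood at −1.36, Vax2os at −1.20, Toporsos at −1.13 and Ccpg1os at −0.92. The partners Vax2, Topors and Ccpg1 stood at −0.25, −0.11 and −0.36, and of these Topors and Ccpg1 passed the threshold. Crx had 1 count in each library, too few for a ratio. Map2k3os and Srrm4os were both at −0.54. Of the 5 members that passed and were higher in replicate 2, Phtf1os had the highest log2 ratio, 0.96 (adjusted p = 0.00558, exact binomial test), and its partner Phtf1 had one of −0.22 (adjusted p = 0.00436). Cep83os, Ccdc34os, Sp3os and Rab10os ranged from 0.34 to 0.45.

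**Figure D4:**
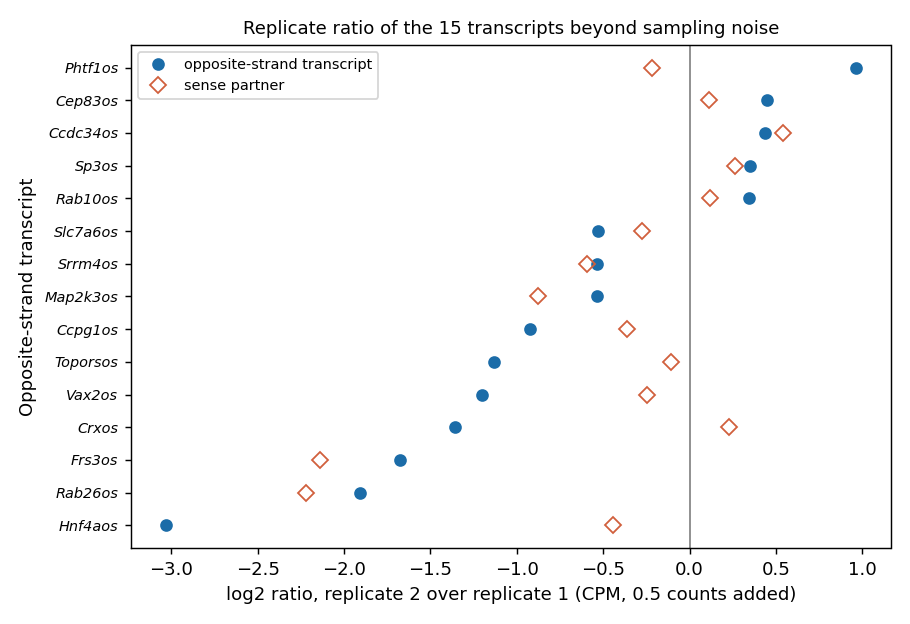
Log2 ratio of CPM in replicate 2 over replicate 1 (0.5 counts added) for the 15 opposite-strand transcripts that differed beyond sampling noise (filled circles) and for their sense partners (open diamonds). Hnf4aos lies lowest at −3.03 with its partner at −0.44, and Phtf1os lies highest at 0.96 with its partner at −0.22.

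Across the 29 detected members the median log2 ratio between replicates was −0.11, against −0.18 for their partners and −0.26 for all detected genes. The ratio had the sign of the partner's in 19 of 29 pairs, with a Spearman's rho of 0.37 across pairs. With the GC content of the transcript, the rho of the members' ratio was −0.32 (28 members with a GC value). These describe pairs that share the same 2 libraries, and no test was made.

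Well known antisense RNAs gave a frame for these levels, from a list of 8 of which 7 were matched in the table and Haglr was not analysed here. Kcnq1ot1 had 3780 and 3804 counts beside 104 and 73 for Kcnq1, and Tsix held 76.3% and 81.6% of the counts it shared with Xist. Nespas held 8.66% and 6.67% of its pair with Gnas, Wrap53 held 16.7% and 15.9% with Trp53, and Airn held 15.3% and 21.9% with Igf2r. Hotair had 0 counts and Fendrr had 3 and 0. In span TPM, Kcnq1ot1 (35.4 ± 6.94), Tsix (31.2 ± 2.88) and Nespas (24.6 ± 3.38) stood between the members Chd3os and Rab10os. Wrap53 (4.51 ± 1.54), Airn (1.46 ± 0.128) and Fendrr (0.0359 ± 0.0508) were lower, and Hotair was at 0. Among symbols formed with as in place of os, Znrd1as had 844 and 329 counts beside 375 and 112 for Znrd1, Dlx1as and Dlx6as2 had 0, and Hras matched by its letters only. Another gene named in the same way, Zbtb8os, has no partner of the exact name in the table and had 461 and 336 counts, or 27.6 ± 0.861 TPM.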

How the data were processed

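Uninduced cells were profiled by stranded polyA mRNA-seq in 2 replicates of 1 group. The authors mapped reads to mm10 and deposited whole-number counts of fragments per gene, made with featureCounts in reverse-stranded mode over whole transcript spans, introns included, and not normalized. The submitters' processing notes list STAR 2.4.2a and Bowtie2 2.3.2. Columns were tied to samples by the shared part of their names, which differ in separators and 1 letter. The members, marker and gene lists were chosen with earlier results of these data known.

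CPM used library totals, and TPM used the deposited span length or the union of GENCODE M21 exons. Detection required 10 counts in each replicate. Shares have 95% Wilson intervals for counting error only. Replicates were compared by an exact binomial test with Benjamini-Hochberg adjustment at 0.05, because 1 group offers no contrast for edgeR's quasi-likelihood test. TMM factors (edgeR) and DESeq2 size factors shifted every log2 ratio by 0.26 and 0.31. The binomial test was tried on simulated counts that varied by counting error alone, apart from a set of changed genes. Spread between libraries beyond counting error was not simulated. Values were given in full for up to 15 detected members with the highest TPM. Also named were members above their partner or differing between replicates, at 0 counts, or on the X chromosome.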

Additional observations from a re-analysis of the deposited data

How the results depend on the processing

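The count of 29 detected members became 65 with at least 1 count in each replicate, 48 with 10 counts in both together and 14 with 50 in each, and 31 to 40 when either replicate was left out. The median level of 0.101 TPM was 0.210 with exonic length, 6.22 over detected members only and 0.0568 to 0.125 in single replicates. The 13 members above their partner became 5 in CPM, 12 with exonic length and 13 to 15 in single replicates. They became 17 over all pairs with a count and 9 over pairs with at least 50 counts in each replicate. That last minimum left out Crxos, Frs3os, Pcsk2os1 and Rab26os. With the mean of the replicates, an alternative chosen after seeing the data, 14 were above. The median log2 ratio to the partner of −2.95 was −6.01 in CPM, −4.37 with exonic length, −3.98 with 0.1 and −2.68 with 1 added count, and −3.14 to −3.01 in single replicates. The lengths and the added count enter these values by construction. The median log2 ratio alone has a sign that could turn, and it stayed negative. Among 28 alternatives for these 4 values and the count of members that differ between replicates, 17 were classed as the same and 11 as moved. The split of that count into higher and lower did change, and so did the order within single pairs, with exonic length (Fam120aos, Kank4os, Tmem51os1, Cebpzos and Ino80dos) and in CPM (in both replicates for Fam120aos, Frs3os, Kank4os, Ptprtos, Sorbs2os and Tmem51os1). No paired analysis was possible because 1 group alone was sequenced. With 2 libraries, members under 10 counts could not be ranked.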
